A study of Equus caballus with 4 samples.

Results

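The BCL2 family of apoptosis regulators was examined in differentiating equine satellite cells, the muscle stem cells of the horse, after incubation with gamma-oryzanol (GO), a plant sterol ester mixture from rice bran. The family was taken as 10 genes in which anti-apoptotic members (*BCL2*, *BCL2L1*, *MCL1*), effectors (*BAX*, *BAK1*) and BH3-only members (*BCL2L11*, *BID*, *BBC3*, *PMAIP1*, *BAD*) were distinguished. Members were found by their symbol in the gene name column of the array files. This column held 7 of the 10 symbols, on 26 probes. The remaining 3 genes stood in the same files under other names. *BCL2L11* and *BAX* were listed as transcript numbers and were recognized by the description column of their probes, and *BAK1* was listed as a gene number and was named through it. With these, all 10 members had a probe, and 34 probes were examined among 43603 noncontrol probes.

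GO-treated cells received 125 nM GO for 24 h from day 2 of differentiation, whereas control cells received the vehicle, DMSO, at 0.04 μl/ml, for the same time. Both were primary cultures from *semitendinosus* muscle, kept in medium with low horse serum and harvested on day 3 of differentiation. On each of 4 two-color arrays, RNA of GO-treated cells (Cy5) was hybridized together with RNA of control cells (Cy3). The labels call the arrays biological replicates. The methods describe the choice of 1 line among cultures from several young colts and do not say whether the 4 arrays came from different animals, so the p-values measure the spread between these 4 pairs. Since GO samples always carried Cy5, dye and treatment cannot be told apart.

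Proteins of this family decide whether the outer membrane of the mitochondrion stays closed. BAX and BAK1 form the pores through which cytochrome c leaves the organelle and starts the caspase cascade. BCL2, BCL2L1 (BCL-xL) and MCL1 hold them in check, and the BH3-only proteins, which report stress, damage or loss of growth factors, bind the guardians or activate the effectors. In muscle, some myoblasts die when differentiation begins, and caspase activity also takes part in normal fusion.

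The following probes carry most of what follows, and their target-strand sequences are given here as the array files hold them, 5′ to 3′. Capitals mark the bases shared by all probes of the gene, which shows how little the repeat measurements of 1 gene differ in sequence.
BCL2L11: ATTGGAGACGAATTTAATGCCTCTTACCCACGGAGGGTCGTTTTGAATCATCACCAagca
BAK1: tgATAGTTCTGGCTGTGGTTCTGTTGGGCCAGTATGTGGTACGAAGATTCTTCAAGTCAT
PMAIP1: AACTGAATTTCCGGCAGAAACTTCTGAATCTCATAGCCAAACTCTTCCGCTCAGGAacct
The 5 *BCL2L11* probes had 56 of 60 bases in common, as did the 5 *PMAIP1* probes, and the 2 *BAK1* probes had 58 in common. Probes of 1 gene were therefore repeat readings of 1 site and not independent measurements of the transcript. On EquCab1 the *BCL2L11* probe shown lies on the plus strand of chr15:10824828-10837683, a span of 12856 bases that a probe of 60 bases can cover only across an intron. The *BAK1* probe lies on the minus strand at chr20:27352097-27352156 and the *PMAIP1* probe on the plus strand at chr8:70078117-70078176, each without interruption.

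A log2 ratio below is that of GO over control on 1 array. A probe was tested where it was well above background in at least 1 channel on all 4 arrays, and counted as changed at a Benjamini-Hochberg adjusted p of at most 0.05 in limma together with a change of 1.3-fold or more (0.38 on the log2 scale) in either direction. Each gene was represented by its brightest tested probe. Of the 10 members, 8 were tested, and 2 of them changed: *BCL2L11* fell and *BAK1* rose. This is 25% of the tested members, beside 8.68% of 9504 genes tested in the same fit. In the separate directions, 1 of 8 members rose beside 3.3% of all genes, and 1 of 8 fell beside 5.38%. The members were chosen with earlier results of these data known, and *BCL2L11* was on the study's own list of changed genes from the same arrays. These shares are therefore a description and not a result about the family. The median log2 ratio of the tested members was 0.17, and that of all genes was 0.002. By probe, 32 of the 34 member probes were tested and 10 of these changed (2 higher, 8 lower), beside 8.94% of all 26834 tested probes. The 10 were 5 of *BCL2L11*, 3 of *PMAIP1* and 2 of *BAK1*, and probes of the same gene were repeat readings of the same site. Those of *PMAIP1* met the filter only through the control channel, the higher one. The count by probe is therefore a description and not a result about the family. Both members that changed were among those absent from the gene name column, and of the 6 tested members listed there by symbol, 0 changed in limma. Of these 6, 4 had an unadjusted p under 0.05 in limma, and 0 changed with a plain one-sample test. In bulk RNA, fewer cells that express a gene and less of its RNA per cell cannot be told apart.

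**Figure D1:**
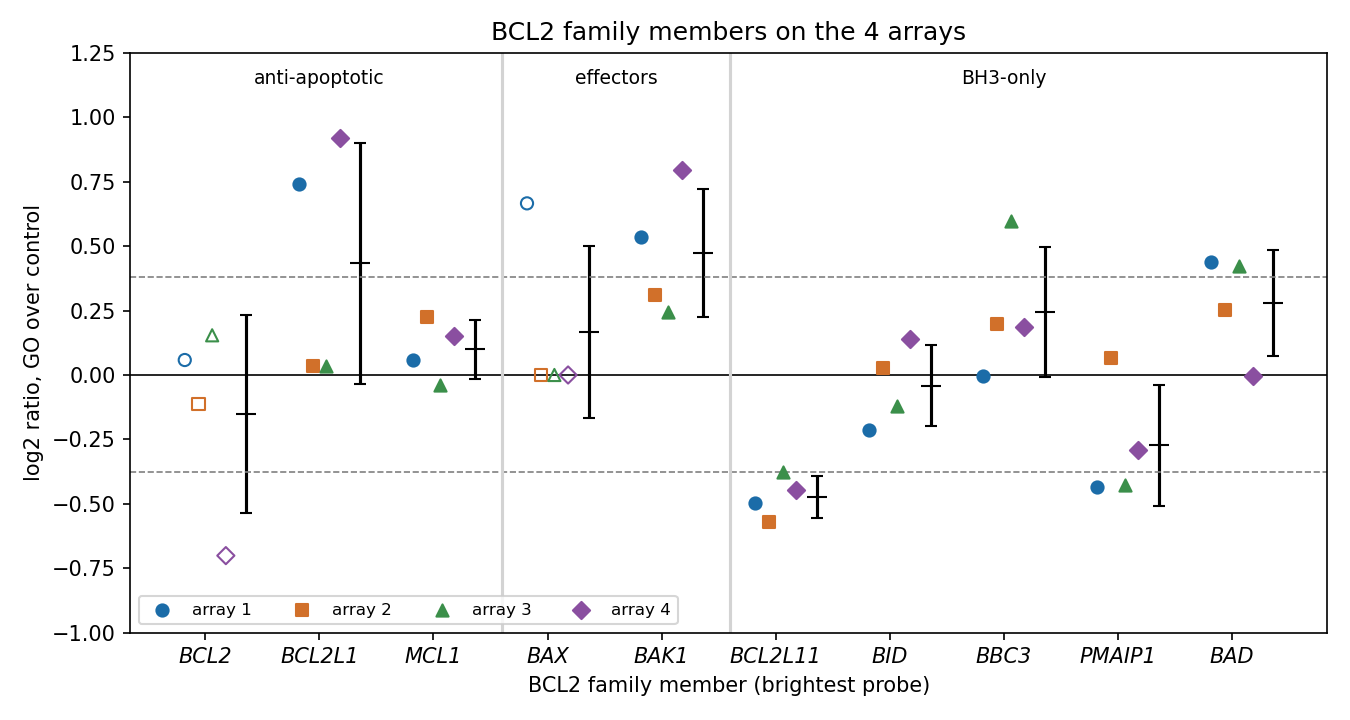
Log2 ratio of GO over control (y axis) for the brightest probe of each BCL2 family member (x axis), by array. Black bars show the mean ± SD of 4 arrays, dashed lines the 1.3-fold threshold, and open symbols the members that did not meet the filter on dim probes. The 4 values of *BCL2L11* lie together between -0.57 and -0.38, and those of *BAK1* lie above 0 but spread from 0.25 to 0.79.

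Among BH3-only members, *BCL2L11* encodes BIM, which is released or induced when survival signals are withdrawn and can bind every anti-apoptotic member of the family. Its control signals were 331, 348.6, 411 and 285.2 on arrays 1 to 4, and its GO signals were 234.3, 234.7, 316.7 and 209.3. The GO channel was the lower one on each array, although the GO value of array 3 lay above the control value of array 4. The log2 ratios were -0.50, -0.57, -0.38 and -0.45. The mean was -0.47 ± 0.08 (SD, n = 4), a 1.39-fold lower level with GO, and the limma adjusted p was 0.00597. All 5 probes changed, with mean log2 ratios from -0.58 to -0.47 and adjusted p-values from 0.00288 to 0.00597. Across these probes and arrays, single log2 ratios lay between -0.67 and -0.38. The study used the same cutoffs with a test that it did not name. Its list of identified changed genes held *BCL2L11*, no other member, and none of the other apoptosis genes called below. The study called far fewer transcripts than the 2399 probes called here, so absence from its list is not a comparison at a like rate of calls. That list rests on the same arrays, so the *BCL2L11* call here is not independent evidence. With normexp background correction and loess in place of the deposited ratios, the brightest probe had a log2 ratio of -0.36 and an adjusted p of 0.0124, below the fold threshold, and 3 of the 5 probes still changed. The brightest probe also missed the adjusted p with the channels as separate samples and no replicate block (0.118), where the other 4 probes passed.

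*PMAIP1* encodes NOXA, a BH3-only protein that binds mainly MCL1. Its signals were near background. The control channel of all 5 probes was well above background on each of the 4 arrays and the GO channel on 2 or 3, so that the probes met the filter only through the control channel, the higher one. None of them met it when both channels had to be well above background on all arrays. The brightest probe gave control signals of 34.4, 30.8, 42.9 and 30.3 and GO signals of 25.4, 32.3, 31.9 and 24.8. Array 2 was the exception, with the higher signal in the GO channel. The log2 ratios were -0.44, 0.07, -0.43 and -0.29, with a mean of -0.27 ± 0.23 (SD, n = 4) and a limma adjusted p of 0.0943. The probes of this gene disagreed about the call. Of the 5, 3 passed both thresholds, at means from -0.55 to -0.45, but since they were tested through the channel in which they were higher, this count is given as a description. On the 4 probes other than the brightest every array had a negative log2 ratio. With the median of the 5 probes in place of the brightest, *PMAIP1* passed both thresholds at a log2 ratio of -0.46 and an adjusted p of 0.0136, whereas with normexp and loess 0 of the 5 probes passed, at mean log2 ratios from -0.16 to -0.09.

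The other BH3-only members did not pass the test. *BBC3* encodes PUMA, a mediator of p53-dependent death. Its log2 ratios were 0.00, 0.20, 0.60 and 0.18, so that array 3 alone lay beyond the fold threshold. The mean was 0.24 ± 0.25 (SD, n = 4), with a limma adjusted p of 0.136 and a 95% interval from 0.00 to 0.48. All 5 of its probes showed this pattern, with array 3 the highest and array 1 at or just below 0, and means from 0.21 to 0.24. In signal, array 1 stood apart in both channels at 1421 for control and 1417 for GO, while the control signals of the other arrays were 869.3, 698.6 and 713.4.

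*BAD*, a sensor of growth factor signaling that is held inactive by phosphorylation, had log2 ratios of 0.44, 0.25, 0.42 and 0.00. Arrays 1 to 3 were higher with GO, and on array 4 the channels were equal at 315.8 for control and 315.1 for GO. The mean was 0.28 ± 0.21 (SD, n = 4), with a limma adjusted p of 0.072 and a 95% interval from 0.07 to 0.49.

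*BID*, which links death receptors to mitochondria after cleavage by caspase 8, differed least. Its brightest probe had log2 ratios of -0.21, 0.03, -0.12 and 0.14 and a mean of -0.04 ± 0.16 (SD, n = 4). The 95% interval, from -0.22 to 0.14, lay within the 1.3-fold threshold on both sides. The 10 *BID* probes were of different kinds, 5 on an uninterrupted stretch and 5 that end in a second exon and span 412 bases of the genome. Their mean log2 ratios were -0.06 to -0.04 and -0.07 to -0.02, and the lowest limma adjusted p among all 10 was 0.501. All 10 had most of their bases in common, and the kinds differed only near the end of the sequence. They were therefore close to repeat readings of the same site and not independent measurements.

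**Figure D2:**
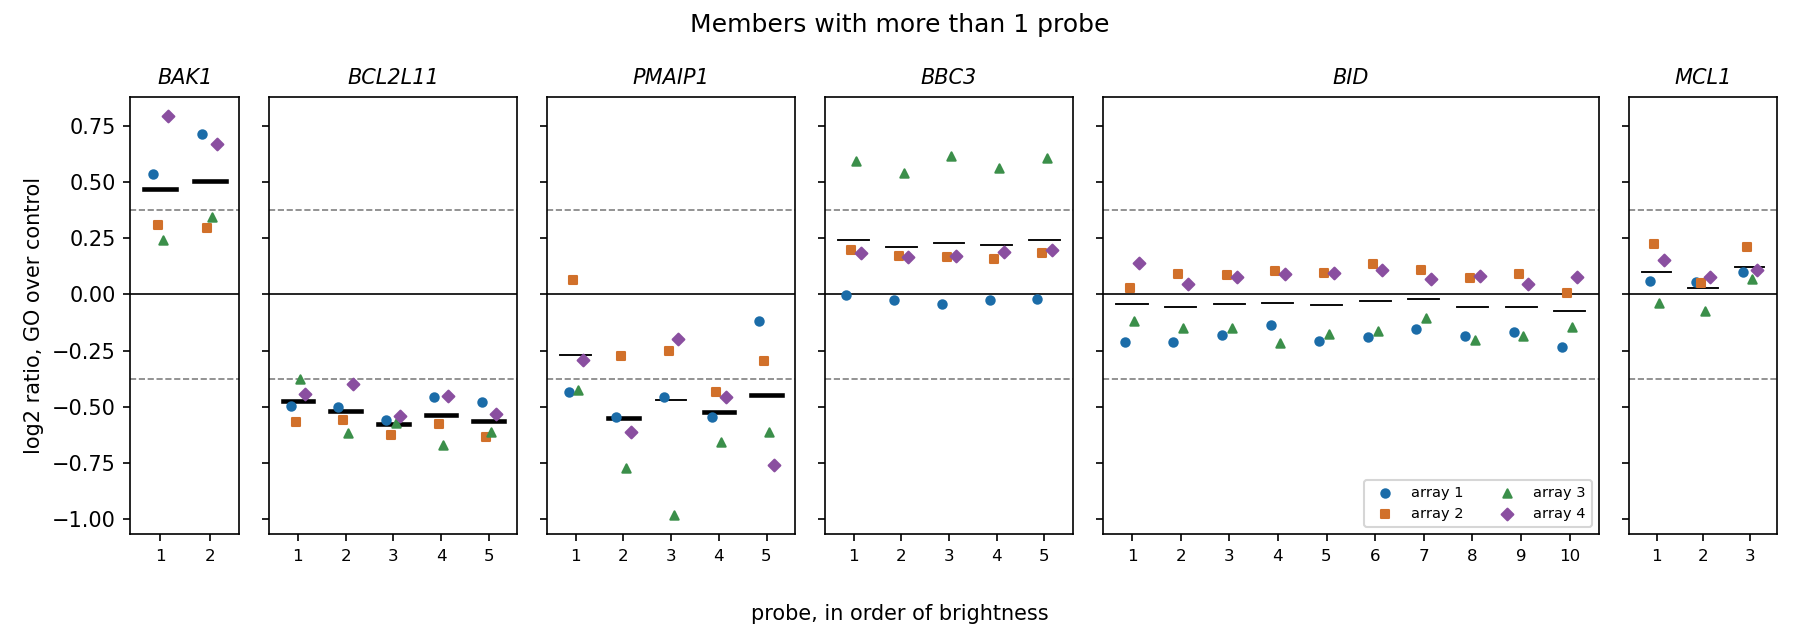
Log2 ratios (y axis) of every probe of the 6 members with more than 1 probe, ordered by brightness (x axis). Points are the 4 arrays, horizontal bars the means, thick where a probe passed both thresholds, and dashed lines the 1.3-fold threshold. Array 3 is the highest and array 1 the lowest on all 5 *BBC3* probes, whereas the highest and lowest arrays are not the same on all *PMAIP1* probes, which are near background.

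Of the effectors, *BAK1* is the one that resides constantly in the mitochondrial membrane. Its control signals were 54.5, 98.4, 74.4 and 55.3, and its GO signals were 79, 122.1, 88.2 and 95.9. The GO channel was the brighter one on each array. The log2 ratios were 0.54, 0.31, 0.25 and 0.79, with those of arrays 2 and 3 below the fold threshold. The mean was 0.47 ± 0.25 (SD, n = 4), a 1.39-fold higher level, with a limma adjusted p of 0.0249. The other probe was also higher with GO on every array, at a mean of 0.51 and an adjusted p of 0.0156. The call of the brightest probe was lost without array 1 (log2 ratio 0.45, adjusted p 0.0691), without array 2 (0.53, adjusted p 0.0641) and without array 4 (0.36, adjusted p 0.0476), and held without array 3. The other probe kept its call in each of these fits. Under normexp and loess the brightest probe had a mean of 0.21 and an adjusted p of 0.0897. The adjusted p of this brightest probe was 0.312 with no replicate block, 0.12 with no filter on dim probes and 0.146 with the plain one-sample test. Neither probe passed in any of these settings.

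*BAX*, the effector that moves to the mitochondrion on activation, gave no usable value. Its only probe was well above background in neither channel on any array, and it was recognized by its description alone. Its ratio was given as exactly 0 on 3 arrays and as 0.67 on array 1, where the signals were 3.96 for control and 6.28 for GO. No direction can be read from these values, and only a low signal at this probe was recorded.

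Among the guardians, *BCL2L1* had the widest spread of any tested member. Its log2 ratios were 0.74, 0.03, 0.03 and 0.92, that is, far above the fold threshold on arrays 1 and 4 and close to 0 on arrays 2 and 3. The GO signals were alike on all arrays, at 50.5, 61.7, 53.5 and 52.7, and the control signals were 30.2, 60.2, 52.3 and 27.8. The contrast between arrays thus lay in the control channel. The mean was 0.43 ± 0.47 (SD, n = 4), with a limma adjusted p of 0.116 and a 95% interval from 0.04 to 0.83. Control signals of *BAK1* were also lowest on arrays 1 and 4. Whether these have a common source was not tested.

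*MCL1*, a short-lived guardian on which many cells depend, had control signals of 2174, 1807, 2169 and 1880 and GO signals of 2266, 2114, 2111 and 2090. The log2 ratios were 0.06, 0.23, -0.04 and 0.15. Their mean was 0.10 ± 0.11 (SD, n = 4), with a limma adjusted p of 0.32 and a 95% interval from -0.06 to 0.26, inside the fold threshold. The other probes under this symbol had means of 0.03 and 0.12. A further pair of probes, assigned to *MCL1* by accession and not by symbol, had means of 0.02 and 0.03.

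*BCL2*, the founding member of the family, was represented by 1 probe that was well above background on 3 of 4 arrays in each channel and was not tested. Its log2 ratios were 0.06, -0.11, 0.15 and -0.70. Array 4, with the lowest signals (11.7 for control and 7.17 for GO), was the low one, and the remaining arrays lay close to 0. The mean was -0.15 ± 0.38 (SD, n = 4).

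**Figure D3:**
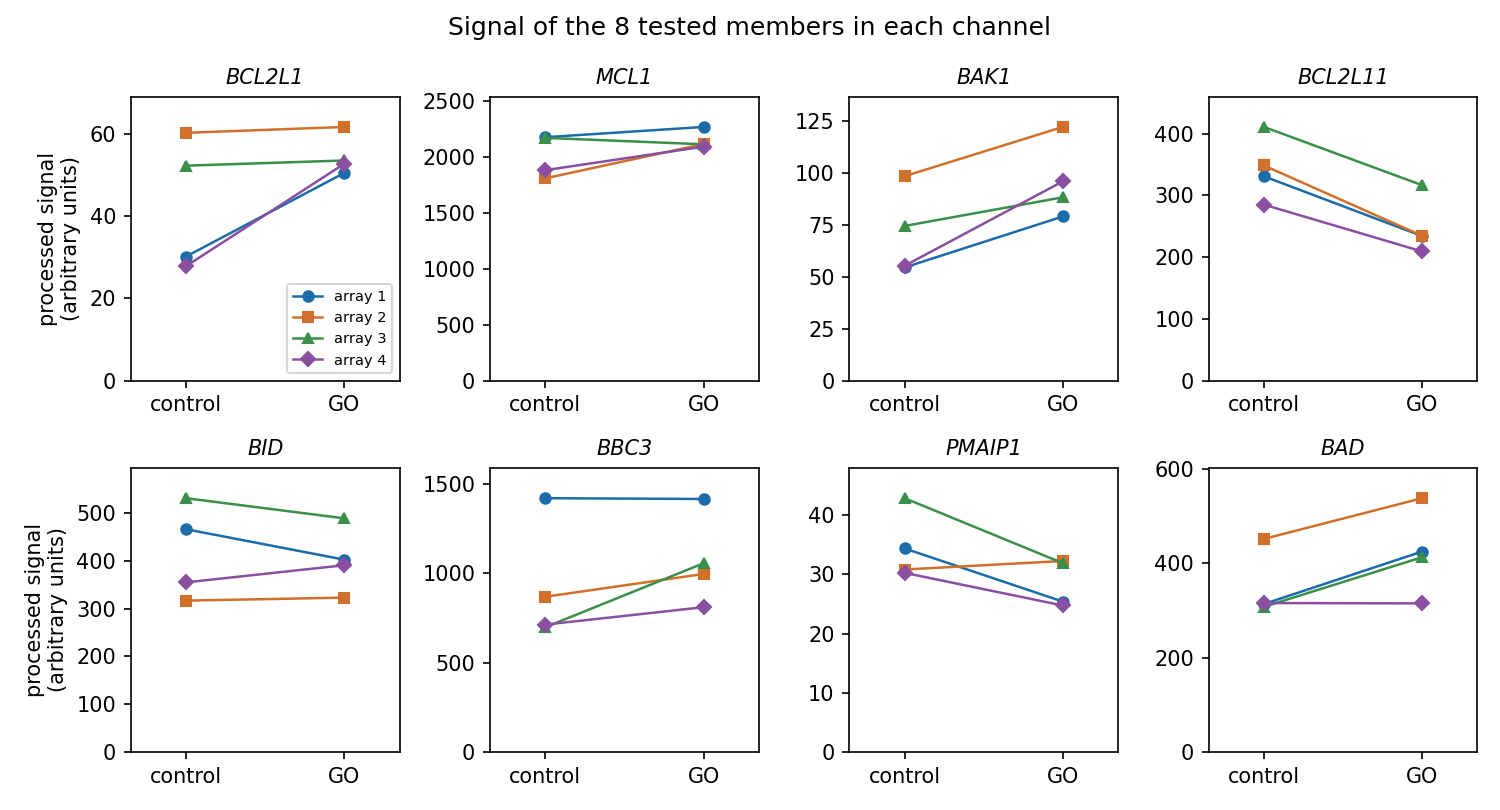
Processed signal in arbitrary units (y axis, from 0) in the control and GO channels for the brightest probe of each of the 8 tested members; a line joins the channels of 1 array. Lines of *BCL2L11* fall and those of *BAK1* rise on all 4 arrays, and those of *BCL2L1* rise steeply on arrays 1 and 4 only.

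Pro-apoptotic and anti-apoptotic members were set side by side as a description, with no test. Over the tested members, 6 pro-apoptotic and 2 anti-apoptotic, the median log2 ratios of the pro-apoptotic side were -0.11, 0.13, 0.06 and 0.07 on arrays 1 to 4. Those of the anti-apoptotic side were 0.40, 0.13, -0.002 and 0.54. The sides differed on arrays 1 and 4, by -0.51 and -0.47 (pro-apoptotic minus anti-apoptotic), and were close together on arrays 2 and 3, at 0.002 and 0.07. The mean difference was -0.23 ± 0.30 (SD, n = 4), smaller than the spread between arrays. It rested on *BCL2L1*, which supplied the high values of arrays 1 and 4. With *BCL2*, which was not tested, added to the anti-apoptotic side, the differences were -0.17, 0.10, 0.03 and -0.08, with a mean of -0.03 ± 0.12 (SD, n = 4). *BAX* was left out here because its ratios of exactly 0 are no measurement. The pro-apoptotic side did not move as a block, since *BCL2L11* and *BAK1* changed in opposite directions. On the anti-apoptotic side, *BCL2L1* and *MCL1* had means above 0, at 0.43 and 0.10, and neither passed the test. The untested *BCL2* had a mean of -0.15.

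**Figure D4:**
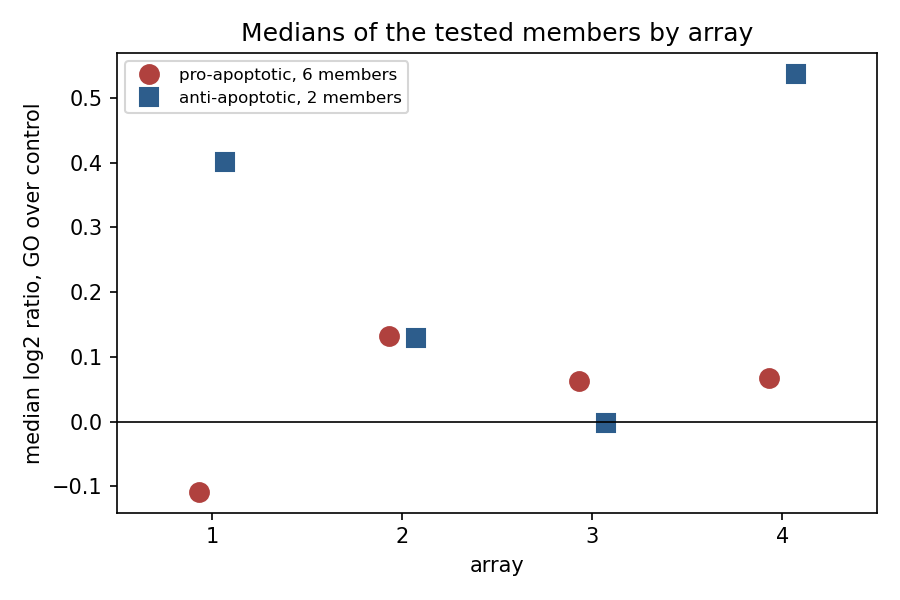
Median log2 ratio of GO over control (y axis) on each array (x axis) for 6 pro-apoptotic members (circles) and 2 anti-apoptotic members (squares) that were tested. The medians are 0.51 and 0.47 apart on arrays 1 and 4 and almost coincide on arrays 2 and 3.

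Genes that act beside the family were counted in 6 lists, by the brightest probe of each gene. Of 71 genes, 63 had a probe and 53 were tested. Of these, 1 rose, beside 3.3% of all genes, and 4 fell, beside 5.38%, shares near those of all genes, so that the counts are no result about these lists. Their median log2 ratio was 0.03. The genes that passed are described below one by one. Relatives of the family outside the 10 members showed 0 changes in limma among 10 tested genes, of which 4 had an unadjusted p under 0.05, and 0 changed with the plain test. The lowest p-values were those of the BH3-only gene *BIK* (log2 ratio 0.26 ± 0.11, SD, n = 4, limma adjusted p 0.0395, below the fold threshold) and the BAX-like *BOK* (0.23 ± 0.17, adjusted p 0.0864).

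Downstream of the pore, 1 of 11 tested genes of the apoptosome and caspases changed. *CYCS*, cytochrome c, which serves respiration inside the mitochondrion and assembles the apoptosome outside it, had log2 ratios of -0.40, -0.25, -0.46 and -0.44. The mean was -0.39 ± 0.10 (SD, n = 4), just beyond the fold threshold, with a limma adjusted p of 0.0117. The other *CYCS* probe had a mean of -0.36 and did not pass. Without array 3 the brightest probe gave -0.36 (adjusted p 0.0541) and without array 4 it gave -0.37 (adjusted p 0.0374). With arrays centred on the median and no lowess, its log2 ratio was -0.02 (adjusted p 0.852).

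Of 8 tested inhibitors of apoptosis and their antagonists, 1 rose and 1 fell. *XAF1*, an interferon-induced antagonist of XIAP, had log2 ratios of -2.21, -2.07, -2.46 and -1.21. Its control signals ranged from 44.9 to 543.2 and its GO signals from 18.7 to 99.1, and the GO channel was well above background on 3 of 4 arrays, so that the gene was tested through its control channel, the higher one. The mean was -1.99 ± 0.54 (SD, n = 4), a 3.96-fold lower level with a limma adjusted p of 0.00291, and the call held when any 1 array was left out. Since the gene was tested through the channel in which it was higher, this call and the fits without 1 array are given as a description. With no filter on dim probes the adjusted p was 0.0508, and the gene was not tested when both channels had to be well above background. *BIRC3*, a ubiquitin ligase of the TNF pathway, had log2 ratios of 0.09, 0.49, 0.48 and 0.76. The mean was 0.46 ± 0.27 (SD, n = 4), with a limma adjusted p of 0.0333. It no longer passed without array 2 (adjusted p 0.112), array 3 (0.103) or array 4 (0.0751).

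Regulators of the family's genes and proteins included 17 tested genes, of which 2 fell. Both encode forkhead factors known to activate *BCL2L11* transcription. *FOXO1* had log2 ratios of -0.30, -0.40, -0.45 and -0.44 and a mean of -0.40 ± 0.07 (SD, n = 4, limma adjusted p 0.00863). Without array 2 its adjusted p was 0.0502, and without array 3 its log2 ratio was -0.378, marginally inside the fold threshold. *FOXO3* had log2 ratios of -0.09, -0.51, -0.56 and -0.55 at its brightest probe and a mean of -0.43 ± 0.23 (SD, n = 4, limma adjusted p 0.0271). Only 1 of its 9 probes passed, and their means ranged from -0.43 to -0.10. It no longer passed without array 2 (adjusted p 0.104), array 3 (0.0978) or array 4 (0.0711). Of the 5 changed genes of these lists, *XAF1* alone passed with normexp and loess, at a log2 ratio of -0.92, and *CYCS* and *FOXO1* alone passed with no filter on dim probes.

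Among death receptor genes, 0 of 4 tested genes changed in limma, 0 had an unadjusted p under 0.05, and 0 changed with the plain test. The receptors *TNFRSF1A* (log2 ratio 0.16 ± 0.14, SD, n = 4, limma adjusted p 0.159) and *FAS* (0.21 ± 0.39, adjusted p 0.343) had the lowest p-values. The 3 voltage-dependent anion channels of the outer membrane did not pass either, and 0 of them had an unadjusted p under 0.05 or changed with the plain test. *VDAC3* had a mean log2 ratio of -0.08 ± 0.06 and an adjusted p of 0.336, and *VDAC1* had 0.10 ± 0.14 and an adjusted p of 0.358.

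**Figure D5:**
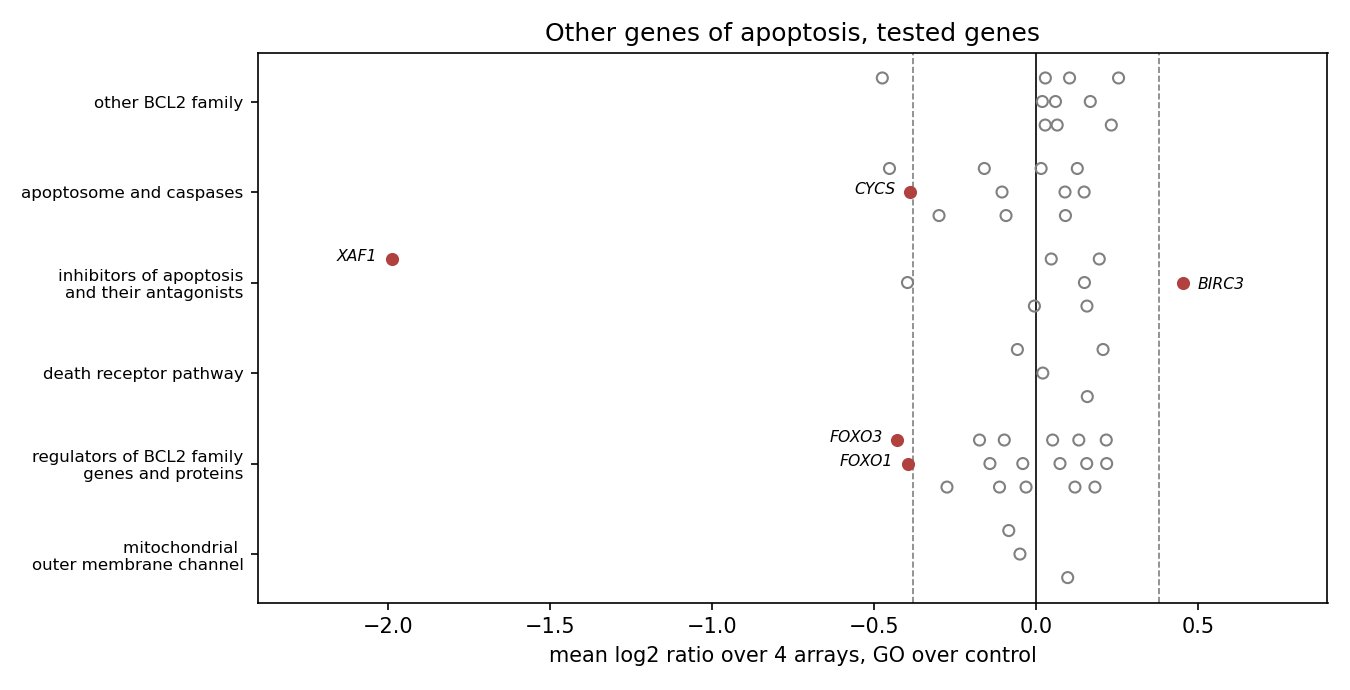
Mean log2 ratio over 4 arrays, GO over control (x axis), of 53 tested genes in 6 lists (y axis). Filled points passed both thresholds and are named, and dashed lines mark the 1.3-fold threshold. Apart from *XAF1* at -1.99, all genes lie between -0.47 and 0.46.

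The labeled cell type was checked against marker genes. All 8 muscle markers with a probe were well above background in both channels on all arrays, and so were all 6 fibroblast markers with a probe. No adipocyte marker of 3 and no endothelial marker of 4 reached the filter, and 2 of 5 leukocyte markers did. Of the muscle markers 5 fell with GO, *MYF5*, *MYOG*, *DES*, *NCAM1* and *MYH3*, and their list had a median log2 ratio of -0.50. The summed muscle signal was 233329 to 332762 in control channels and 155854 to 224084 in GO channels, lower with GO on 4 of 4 arrays. *ACTC1* and *MYH3* made up most of it, and *ACTC1* lay inside the fold threshold (log2 ratio -0.33, limma adjusted p 0.046). Of the fibroblast markers, *PDGFRA* rose (log2 ratio 0.87, limma adjusted p 0.0198), at low control signals of 21.8 to 46.4. The list of these markers had a median log2 ratio of 0.08. The summed fibroblast signal was 163914 to 230584 for control and 171488 to 217595 for GO, higher with GO on 1 of 4 arrays. Its largest part was *COL3A1*, whose brightest probe was lower with GO on 4 of 4 arrays at a mean log2 ratio of -0.10 (limma adjusted p 0.245). The 7 *COL3A1* probes disagreed in direction, with means from -0.18 to 0.37, and 0 of them passed both thresholds. The other fibroblast markers had means above 0 at their brightest probes. Of the 2 *DCN* probes, the dimmer one passed both thresholds, at a mean of 0.42. The leukocyte markers that reached the filter were *CD14* and *CD68*, while *CD3E*, *CD79A* and *ITGAM* were not well above background on any array, and the summed signal of the 5 was 4223 to 5017 for control and 4459 to 5291 for GO, higher with GO on 4 of 4 arrays. Most of this sum was *CD14*, and *CD68* was lower with GO on 4 of 4 arrays, at a mean log2 ratio of -0.28 (limma adjusted p 0.0597). The part of these shifts in the changes of *BCL2L11* and *BAK1* was not tested.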

How the data were processed

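Each of the 4 two-color arrays gave 1 ratio per probe. The authors processed scans with Feature Extraction (version 10.10.1.1 in the headers). For each channel, intensity was deposited as raw, background-subtracted and processed signals. The authors also deposited log10 ratios of processed Cy5 (GO) over processed Cy3 (control) signals, after linear and lowess dye normalization. Positions are on EquCab1.

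Ratios were converted to log2. Control spots and outlier spots were left out, spots of 1 probe were averaged, and 26834 of 43603 probes met the filter. They were tested against 0, two-sided, with limma 3.58.1 (lmFit on an intercept, eBayes) in R 4.3.3, with Benjamini-Hochberg adjustment over all probes tested. Of these, 2399 changed (894 higher, 1505 lower), 37.3% of them higher. With median centring and no lowess 51.3% were higher. The code was tested on simulated data. Figures were drawn with matplotlib (version 3.10.9). No saturated noncontrol spot was found. Between 57.4 and 68.9% of noncontrol spots were well above background per channel, and with 4 arrays their number limits the precision.

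Symbols came from the files for 24962 probes, from the RefSeq table of the TB-T2T assembly by gene number for 1684 and by accession for 436, and from descriptions for 7. The members and the lists were chosen with earlier results of these data known. All 10 members were named, as were the genes of other lists past both thresholds and, for lists with none, the 2 with the lowest p.

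The ratio within an array pairs its channels. Across probes, the deviation of a channel from the mean of its 4 channels correlated with that of the other channel at 0.48 to 0.86 within an array and of -0.54 to 0.24 between arrays. Alternatives were another background correction, centring, filter, test, weighting, choice of probe, unpaired channels and leaving out each array. Counting only members named by symbol, counting any probe of a member, and leaving out *BAX* from the medians of both sides were added after the data were seen.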

Additional observations from a re-analysis of the deposited data

Results flagged for a closer look

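Among the named genes, 1 had an array far from the other 3. The log2 ratios of *FOXO3* were -0.09 on array 1 and -0.51 to -0.56 on the others, and the gap to array 1 was 0.881 of the whole range, above Dixon's 95% critical value for 4 values. Such a gap is met by chance in about 1 of 20 groups. No BCL2 family member that was tested had such a gap.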

How the results depend on the processing

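The *BCL2L11* log2 ratio stayed below 0 in every alternative. It was -0.36 with normexp and loess, and it missed the adjusted p at -0.47 with the plain one-sample test (adjusted p 0.0606) and with channels as separate samples and no replicate block (adjusted p 0.118). With the block left out in this way, 0 members, 0 other apoptosis genes and 919 probes changed. With normexp and loess the counts were 0 members, 1 other gene and 1297 probes. With the plain test they were 0, 0 and 147. With no filter they were 1, 2 and 908. With the median of a gene's probes 3 other genes changed, and with members counted by symbol alone 0 members changed. When 1 array was left out, 1 to 2 members, 1 to 5 other genes and 1566 to 2430 probes changed, and *BCL2L11* kept its call at -0.51 to -0.44. The *BID* log2 ratio turned to 0.016 without array 1, and lay between -0.10 and 0.016 over these fits. The difference between pro-apoptotic and anti-apoptotic medians lay between -0.33 and -0.03 in all alternatives, -0.03 being the value over all members except *BAX*, a choice made after seeing the data. The causes were not tested. *BAX* and *BCL2* were too dim to be tested. The strict filter left out *PMAIP1* and *XAF1*.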
